A study of Saccharomyces cerevisiae with 8 samples.

Results

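Temperature moved the transcripts of budding yeast, *Saccharomyces cerevisiae*, differently in the temperature-sensitive strain met30-6 and in the strain PY1, and the values below are that strain-dependent share of the heat response. For each gene, the log2 change from 25 °C to 35 °C in PY1 was subtracted from the same change in met30-6, and the result is called the interaction. A positive interaction means that 35 °C left the gene relatively higher in met30-6 than the PY1 change would have done. All named genes entered, 5449 of them, measured by 5498 of the 5716 probe sets, with the brightest probe set on average standing for its gene. A gene was called where the linear model limma gave an adjusted p under 0.05 over the 5449 genes. The interaction was called for 2631 genes, 48.3% of those tested. A smaller set of 328 genes went opposite ways: the heat change was called in each strain, with a rise in the one and a fall in the other, and the interaction was called too.

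The 8 Affymetrix arrays, 2 to a group, held 4 groups: met30-6 (strain py283 in the labels) kept for 1 h at 35 °C, met30-6 at 25 °C, PY1 kept for 1 h at 35 °C, and PY1 at 25 °C. Cultures had reached the mid-log phase at 25 °C in YPDA, a rich medium, so the medium, the growth phase and the flash freezing before RNA extraction were shared by the 4 groups. The alleles that PY1 carries are not given here by any label, and each strain is represented by a single named line, so the effect of the met30-6 allele and that of any other difference between the strains cannot be told apart. Nothing in the labels says that the replicates of a group were grown separately, and p-values here therefore rest on a spread that may be technical, that between the samples at hand.

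Met30 is the F-box subunit of an SCF ubiquitin ligase, which holds Met4 in check when sulfur compounds are plentiful. Met4 is the activator of the genes that take up sulfate, reduce it and build methionine, cysteine and S-adenosylmethionine, and it reaches DNA through the cofactors Met31, Met32, Cbf1 and Met28. Loss of Met30 activity is also known to stop yeast cells before DNA replication. Entry into S phase is prepared by the late G1 genes, which the factors SBF and MBF switch on at Start, and a sudden rise in temperature is known to induce chaperone and general stress genes while ribosome production is cut back.

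At the level of all genes, heat moved more transcripts in met30-6 than in PY1, and many of those that moved in both strains moved further in met30-6. In met30-6, 2116 genes rose (38.8% of those tested) and 1596 fell (29.3%). In PY1, 1429 genes rose (26.2%) and 569 fell (10.4%). Both splits depended on the scaling between arrays. Where each array was centred on a common median, met30-6 had 2226 up and 1582 down and PY1 1193 up and 849 down. After quantile normalisation met30-6 had 1910 up and 1957 down, which turned its balance, and PY1 1150 up and 1144 down. The median size of the heat change, sign left aside, was 0.36 in met30-6 and 0.18 in PY1 on the log2 scale. Changes of at least 2-fold were called for 725 genes in met30-6 and for 178 in PY1. Across genes, which are not independent replicates, the heat changes of the strains correlated at a Pearson's r of 0.52.

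The called interactions were 1294 genes higher (23.7%) and 1337 lower (24.5%). That balance also moved with the scaling, to 1640 higher and 1198 lower with centred medians and 1507 higher and 1501 lower after quantile normalisation. Interactions of 2-fold or more numbered 249 higher and 293 lower. A rise in both strains that was larger in met30-6 described 409 of the called genes, with median heat changes of 1.12 in met30-6 and 0.43 in PY1. A fall in both that was larger in met30-6 described 133 genes, with medians of −0.97 and −0.33 in the same order. Rises and falls that were smaller in met30-6 were few, 32 and 16 genes. The largest classes were the genes whose heat change was called in met30-6 and not in PY1, 667 up and 788 down. Their median PY1 changes were 0.03 and 0.021. Another 150 genes rose and 69 fell by a call in PY1 and not in met30-6, and 39 had a called interaction with no called change in either strain.

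Among genes called in both strains, movement in the same direction was the more common pattern. A total of 1905 genes had heat changes of opposite sign at any size, but only 328 had both changes called: 118 rose in met30-6 and fell in PY1 (2.17% of genes tested), and 210 fell in met30-6 and rose in PY1 (3.85%). The balance moved with the scaling, to 173 up and 167 down with centred medians and 214 up and 187 down after quantile normalisation. The 328 made up 20.5% of the 1599 genes called in both strains. Seen from each strain, the 118 were 5.58% of the genes that rose in met30-6 and 20.7% of those that fell in PY1. The 210 were 13.2% of the genes that fell in met30-6 and 14.7% of those that rose in PY1. By contrast 947 genes rose in both strains and 324 fell in both. No arrays overlapped between temperatures within either strain for any of the 328, which follows closely from the calls. Over all genes, 329 were parted in the first way and 572 in the second.

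**Figure D1:**
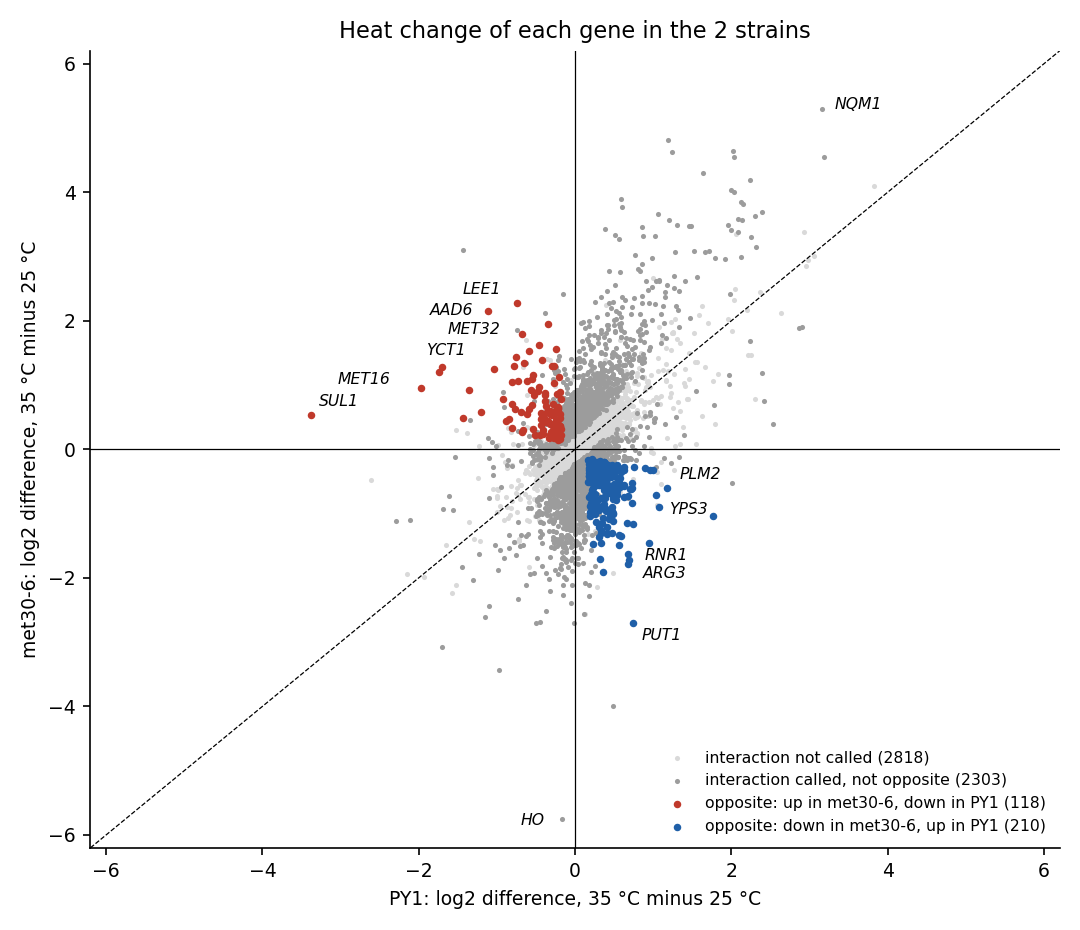
Heat change of each of the 5449 genes, 35 °C minus 25 °C on the log2 scale, in met30-6 (vertical axis) against PY1 (horizontal axis), 1 point a gene, with red and blue points for the 118 and 210 genes that moved in opposite directions and the dashed line for equal changes. Most points far from the origin lie above the dashed line at the upper right or below it near the vertical axis, and the opposite genes fill the upper left and lower right corners, where *SUL1* fell by 3.38 in PY1.

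The opposite calls had thin margins in places. The genes nearest the threshold on the inner side were *OPT2*, with an adjusted p of 0.0493 for its met30-6 change of −0.32, and *TMA46*, with 0.0497 for its PY1 change of 0.20. Just outside stood *GEA1*, whose PY1 change of 0.18 had an adjusted p of 0.0504, and *YOR186W*, whose PY1 change of −0.53 had 0.0505. A change of at least 1.5-fold in each strain was met by 20 of the 118 and by 18 of the 210. Leaving out 1 array moved the counts most where a PY1 array at 35 °C was dropped. The 118 became 60 without replicate 1 of that group, 74 without its replicate 2 and 74 without replicate 1 of met30-6 at 25 °C, and the 210 became 96 without replicate 2 of PY1 at 35 °C, 135 without its replicate 1 and 133 without replicate 2 of met30-6 at 25 °C. In these 8 fits no gene of either set changed the sign of its heat change in either strain. Over 15 alternative settings, which included these 8 and a threshold of 0.01, 215 of the 328 left the class in at least 1, whereas the interaction call ended for 5. Of the genes named below, *SLD2* and *TRM13* left the class in 13 settings, *ALK1*, *CDC9*, *DBP8*, *GLG1* and *RPN11* in 10. *RAD27* left it in 9 and *GIS1* and *STR3* in 8. *HHT1*, *CAR2* and *PDC5*, also named below, left the class in most of the 15 settings as well.

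The 118 genes that rose in met30-6 and fell in PY1 included many genes of sulfur metabolism. Their median heat changes were 0.50 in met30-6 and −0.32 in PY1, with a median interaction of 0.87, and 48 interactions reached 2-fold. In 40 of the 118 the fall in PY1 was larger than the rise in met30-6. That count makes no allowance for rises that began near the highest array values. Of the 19 measured genes of sulfate assimilation and methionine synthesis, 8 were among the 118. So were 8 of the 13 genes for taking up and salvaging sulfur compounds, and 2 of the 6 genes of the Met4 complex and Met30. These lists, like all 39 gene lists counted here, were drawn up with earlier results of these data known.

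Sulfate enters the cell through the permeases *SUL1* and *SUL2*. *SUL1* measured 14.07 and 14.02 in met30-6 at 35 °C and 13.48 and 13.54 at 25 °C, against 5.24 and 5.58 in PY1 at 35 °C and 8.85 and 8.73 at 25 °C. Its 4 groups were well apart, and PY1 at 35 °C lay in the dim range where values scatter, so its interaction of 3.91 ± 0.16 (limma, adjusted p = 2.79e-05) has an uncertain size. The rise of *SUL1* in met30-6 was small, 0.54 ± 0.11, and started close to the top of the array's scale, where the highest value of any array was 14.51. *SUL2* stood at 13.90 and 14.01 in met30-6 at 35 °C and 12.94 and 12.89 at 25 °C, against 9.76 and 9.86 in PY1 at 35 °C and 10.66 and 10.57 at 25 °C. The 4 groups did not overlap, and the rise in met30-6, 1.04 ± 0.068, was larger than the fall in PY1, −0.81 ± 0.068.

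Reduction of sulfate follows through *MET3* (ATP sulfurylase), *MET14* (adenylylsulfate kinase), *MET16* (phosphoadenylylsulfate reductase) and the sulfite reductase subunits *MET5* and *MET10*, whose siroheme cofactor needs *MET1*. All 6 moved in opposite directions. *MET16* had 13.92 and 13.96 in met30-6 at 35 °C and 12.95 and 13.04 at 25 °C, against 9.78 and 9.86 in PY1 at 35 °C and 11.84 and 11.76 at 25 °C. The PY1 arrays at 35 °C were the lowest and the met30-6 arrays at 35 °C the highest, and its heat changes were 0.95 ± 0.061 in met30-6 and −1.98 ± 0.061 in PY1. *MET1* measured 13.85 and 13.89 in met30-6 at 35 °C and 12.63 and 12.62 at 25 °C, against 10.00 and 10.21 in PY1 at 35 °C and 11.21 and 11.06 at 25 °C. Its groups were again ordered with no overlap, and its interaction was 2.28 ± 0.12 (adjusted p = 4.83e-05, limma). For the other members the heat changes in met30-6 and PY1 were 0.49 and −1.44 for *MET3*, 0.45 and −0.88 for *MET14*, 0.47 and −0.85 for *MET5* and 0.84 and −0.52 for *MET10*. In *MET3*, *MET14*, *MET16* and *MET5* the fall in PY1 was the larger part of the interaction, whereas in *MET10* and *MET1* the rise in met30-6 was. The met30-6 arrays of *MET16* stood at 12.95 to 13.96, where 14.51 was the highest value of any array. Whether this limited the size of its rise was not tested.

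The remaining 11 genes of that list stopped short of opposite movement. *MET8*, also of siroheme synthesis, rose by 1.71 in met30-6 with a PY1 change of 0.16 that was not called, and *MET2*, homoserine acetyltransferase, rose by 1.09 beside −0.28 in PY1. *MET17*, *HOM3*, *SAM2* and *MET13* likewise rose by a call in met30-6 alone, by 0.24 to 0.64. *MET12* fell in PY1 (−0.24) and had 0.027 in met30-6. The interaction calls of *MET17* and *MET12* ended in 9 of the 15 settings. The interactions of *MET6*, *HOM2*, *HOM6* and *SAM1*, at the methionine end of the pathway and in homoserine synthesis, were not called. *MET22*, which encodes a nucleotidase that removes the by-product of sulfate reduction and which was on no list, moved in opposite directions as well (0.68 in met30-6 and −0.55 in PY1). It was picked out after its values were seen.

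Genes that bring sulfur compounds in from outside moved the same way. *YCT1*, a cysteine transporter, had 14.06 and 14.15 in met30-6 at 35 °C and 12.83 and 12.82 at 25 °C, against 7.84 and 8.02 in PY1 at 35 °C and 9.68 and 9.57 at 25 °C. The met30-6 arrays lay above all PY1 arrays at both temperatures, and the strains moved apart by a further 2.97 ± 0.11 (adjusted p = 2.34e-05, limma) at 35 °C. *SEO1*, a putative permease, measured 13.73 and 13.74 in met30-6 at 35 °C and 12.54 and 12.52 at 25 °C, against 7.06 and 7.38 in PY1 at 35 °C and 9.06 and 8.87 at 25 °C. This order repeated that of *YCT1*, and its heat changes were 1.21 ± 0.11 in met30-6 and −1.75 ± 0.11 in PY1. *MHT1*, a methyltransferase that makes methionine from S-methylmethionine, and *MMP1*, the permease for S-methylmethionine, are neighbours on the chromosome. *MHT1* changed by 1.44 in met30-6 and −0.75 in PY1, and *MMP1* by 1.05 in met30-6 and −0.73 in PY1. The other opposite genes of the list were the methionine permease gene *MUP3* (1.63 and −0.46 in met30-6 and PY1), the amino acid permease gene *AGP3* (1.16 and −0.54), the glutathione and peptide transporter gene *OPT1* (0.92 and −0.57) and *STR3*, a cystathionine beta-lyase gene (1.96 and −0.35). *SAM4*, which like *MHT1* makes methionine from homocysteine, was the list's exception: it fell in met30-6 (−0.99) and changed by −0.18 in PY1, an interaction of −0.80 ± 0.084. *JLP1*, a sulfonate dioxygenase gene, rose in both strains (1.71 in met30-6 and 0.83 in PY1), with an interaction call that ended in 6 of the 8 fits with a single array left out.

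Among the regulators, *MET32* and *MET28* moved in opposite directions. *MET32*, a DNA-binding cofactor of Met4, measured 13.17 and 13.21 in met30-6 at 35 °C and 11.34 and 11.45 at 25 °C, against 8.59 and 8.75 in PY1 at 35 °C and 9.38 and 9.31 at 25 °C. Its met30-6 arrays were higher than its PY1 arrays at each temperature, and its interaction was 2.47 ± 0.10 (limma, adjusted p = 3.11e-05). *MET28*, a further cofactor, changed by 1.39 in met30-6 and −0.42 in PY1, an opposite call that ended when some single arrays were left out. *MET31*, the paralog of *MET32*, had the reverse interaction, with a called rise of 0.49 in PY1 and −0.19 in met30-6. *MET4* rose by 0.60 in met30-6, where PY1 had 0.083. The *MET30* transcript had 13.03 and 13.11 in met30-6 at 35 °C and 11.69 and 11.65 at 25 °C, against 10.98 and 10.97 in PY1 at 35 °C and 11.06 and 10.99 at 25 °C. It thus rose in met30-6 alone by 1.40 ± 0.056, and its level is no check of the allele, since a temperature-sensitive allele need not change its transcript. *CDC53*, the cullin of SCF ligases, was among the 118 at 0.55 in met30-6 and −0.20 in PY1 and was picked out after its values were seen.

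**Figure D2:**
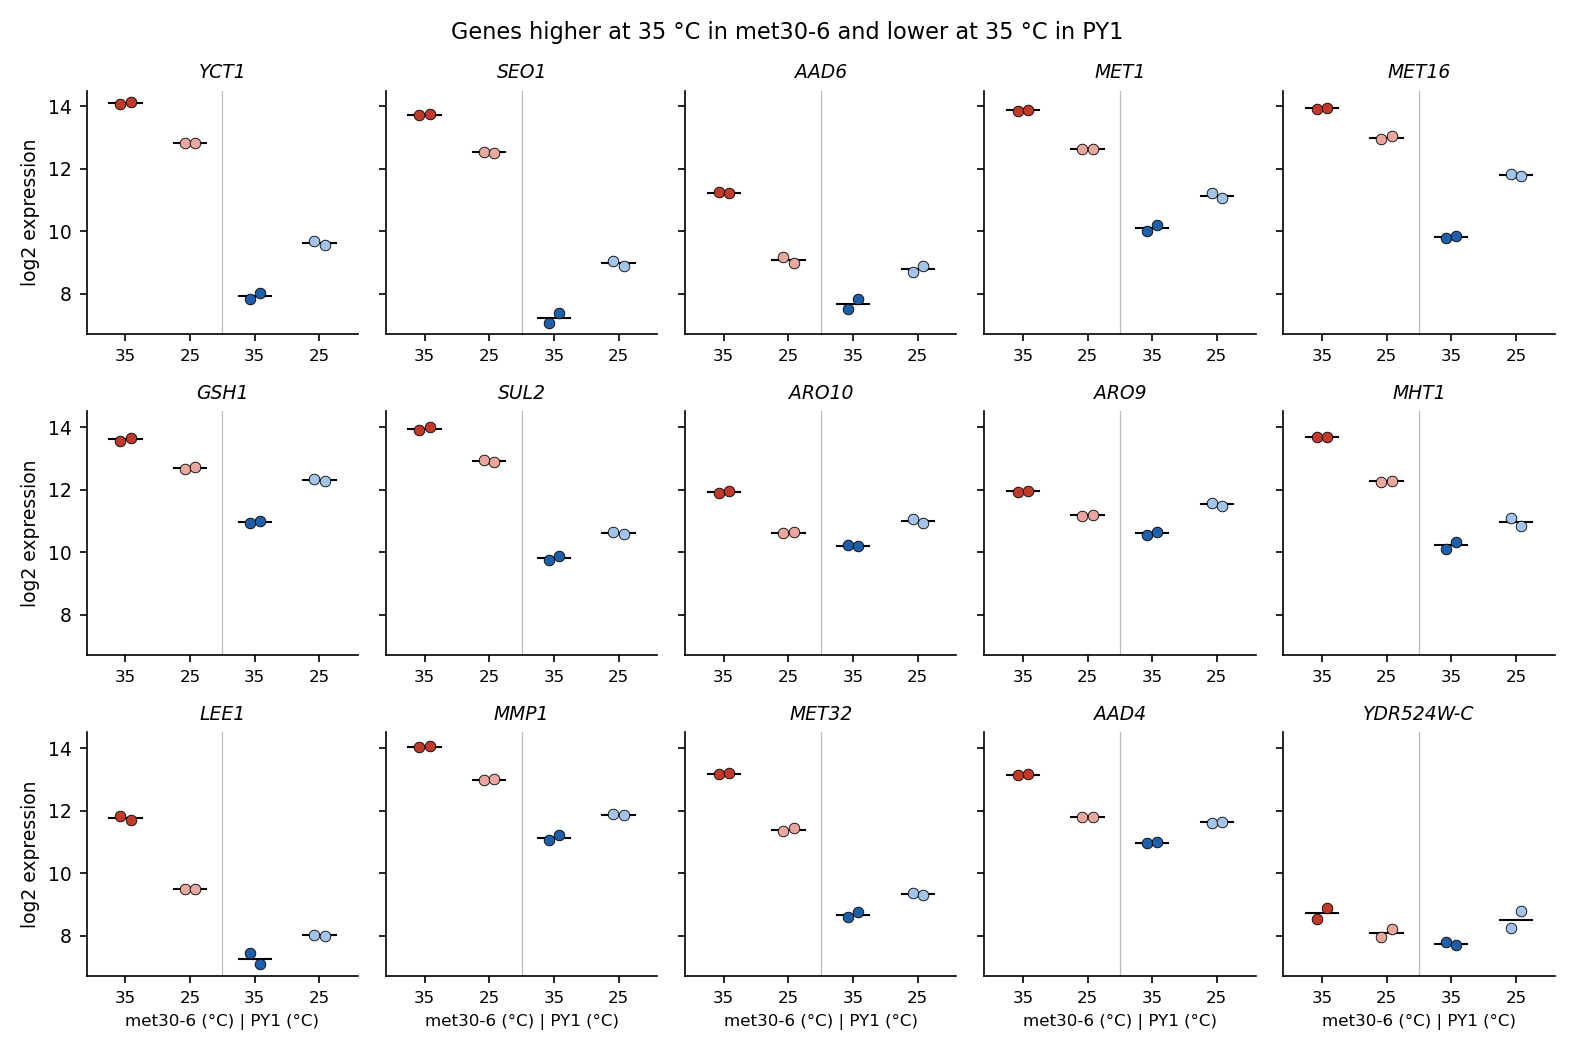
Log2 expression on each array (points) and group mean (bars) for the 15 genes with the largest opposite changes among those up in met30-6 and down in PY1, at 35 °C and 25 °C for met30-6 (left, red) and PY1 (right, blue). In every panel the met30-6 points at 35 °C lie above those at 25 °C and the PY1 points at 35 °C lie below those at 25 °C.

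Of the 16 transsulfuration and glutathione genes, 3 were opposite, while *GTO3* and *IRC7* fell in both strains. *GSH1*, which makes the first intermediate of glutathione, had 13.56 and 13.66 in met30-6 at 35 °C and 12.65 and 12.72 at 25 °C, against 10.94 and 10.99 in PY1 at 35 °C and 12.35 and 12.28 at 25 °C. The met30-6 arrays were higher than the PY1 arrays by 2.65 at 35 °C and by 0.37 at 25 °C. *GTO1*, an omega-class glutathione transferase gene, changed by 1.53 in met30-6 and −0.59 in PY1, and *GTT2*, another glutathione transferase gene next to *MMP1* on the chromosome, by 0.30 in met30-6 and −0.67 in PY1. *AAD6*, *AAD4* and *AAD3* encode putative aryl-alcohol dehydrogenases. *AAD6* measured 11.25 and 11.22 in met30-6 at 35 °C and 9.18 and 8.97 at 25 °C, against 7.51 and 7.84 in PY1 at 35 °C and 8.70 and 8.88 at 25 °C, so the strains were 3.56 apart at 35 °C and 0.29 at 25 °C. *AAD4* changed by 1.35 in met30-6 and −0.66 in PY1 and *AAD3* by 0.59 in met30-6 and −0.70 in PY1, and *AAD3* was named after its values were seen. These paralogs resemble each other in sequence, and cross-hybridisation between their probe sets was not tested.

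*ARO9* and *ARO10*, an aminotransferase and a decarboxylase that break down aromatic amino acids, moved apart from lower starting levels in met30-6. *ARO10* had 11.89 and 11.95 in met30-6 at 35 °C and 10.61 and 10.63 at 25 °C, against 10.23 and 10.19 in PY1 at 35 °C and 11.05 and 10.94 at 25 °C. Its met30-6 arrays were above those of PY1 at 35 °C and below them at 25 °C, with strain differences of 1.71 at 35 °C and −0.37 at 25 °C. *ARO9* also changed sign, with 1.35 at 35 °C and −0.36 at 25 °C. *GRE2*, a methylglyoxal reductase gene, did so too, with 0.79 at 35 °C and −0.9955 at 25 °C, and with heat changes of 0.58 in met30-6 and −1.21 in PY1. *LEE1*, a zinc-finger protein gene of unknown function, measured 11.84 and 11.69 in met30-6 at 35 °C and 9.48 and 9.49 at 25 °C, against 7.43 and 7.08 in PY1 at 35 °C and 8.01 and 7.998 at 25 °C, and its rise in met30-6, 2.28 ± 0.12, was the largest of any opposite gene. Further members from the lists were the serine synthesis gene *SER33* (0.90 and −0.47 in met30-6 and PY1), the inositol synthesis gene *INO1* (1.07 and −0.61), the ornithine transaminase gene *CAR2* (0.68 and −0.37), the pyruvate decarboxylase gene *PDC5* (0.43 and −0.37) and the G1 cyclin gene *CLN3* (0.22 and −0.44). The calls of *INO1*, *CAR2*, *PDC5* and *CLN3* as opposite ended with 1 or more single arrays left out. YDR524W-C, a small gene whose function is not given here, was the least secure of the 15 genes plotted (0.63 in met30-6 and −0.77 in PY1, SE 0.28 of the interaction), and its opposite call ended in some of those fits as well.

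Smaller opposite changes reached several protein complexes. In the proteasome list, 4 of 33 genes were opposite: the lid and base subunit genes *RPN3* (0.39 and −0.24 in met30-6 and PY1), *RPN11* (0.36 and −0.19) and *RPT5* (0.29 and −0.25), and *RPN4* (0.18 and −0.33), the activator of proteasome genes. Without replicate 2 of PY1 at 25 °C, 1 of these calls was left. Of the glycogen genes, *GSY1*, a glycogen synthase (0.34 and −0.80), *GLC3*, the branching enzyme (0.75 and −0.38), and *GLG1*, a primer of glycogen synthesis (0.22 and −0.52), were opposite, of which 1 was left without replicate 1 of PY1 at 35 °C. Of the respiratory genes, *CYT1*, for cytochrome c1 (0.70 and −0.28), the cytochrome oxidase subunit gene *COX4* (0.45 and −0.21) and the NADH dehydrogenase gene *NDI1* (0.58 and −0.36) were opposite, and 0 were left without replicate 2 of PY1 at 25 °C. Of the 118 genes, 44 belonged to a list.

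The 210 genes that fell in met30-6 and rose in PY1 included many genes of late G1 and of DNA replication. Their median heat changes were −0.50 in met30-6 and 0.36 in PY1, with a median interaction of −0.87, and 84 interactions reached 2-fold. The rise in PY1 was the larger of the changes in 68 of them. Of 43 measured late G1 genes, 29 were among the 210, between 23 and 29 when any single array was left out. A further 9 fell by a call in met30-6 alone, 2 rose by a call in PY1 alone and 1 was called in neither strain, so that 41 interactions of the list were called, all lower. *DUN1* and *RFA1* were the 2 not called.

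*RNR1*, the large subunit of ribonucleotide reductase, which supplies deoxynucleotides for replication, measured 10.98 and 10.88 in met30-6 at 35 °C and 12.53 and 12.59 at 25 °C, against 13.05 and 13.14 in PY1 at 35 °C and 12.51 and 12.34 at 25 °C. The strain difference was −2.17 ± 0.077 at 35 °C and 0.13 ± 0.077 at 25 °C, an interaction of −2.30 ± 0.11 (limma, adjusted p = 3.71e-05). *POL1*, the catalytic subunit of DNA polymerase alpha, had 10.64 and 10.54 in met30-6 at 35 °C and 11.90 and 11.98 at 25 °C, against 12.59 and 12.71 in PY1 at 35 °C and 12.12 and 12 at 25 °C. Only the met30-6 arrays at 35 °C were below 11, and its interaction was −1.94 ± 0.10 (adjusted p = 4.84e-05, limma).

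The other replication genes of the list moved together with *RNR1* and *POL1*. In met30-6 and PY1 the heat changes were −0.85 and 0.37 for *POL12* and −1.14 and 0.35 for *PRI2* of the polymerase alpha and primase complex, −0.73 and 0.48 for *POL2* of polymerase epsilon, −1.09 and 0.44 for *POL30*, the sliding clamp, and −0.90 and 0.48 for the helicase component *CDC45*. *CDC21*, thymidylate synthase (−0.78 and 0.49), the flap endonuclease gene *RAD27* (−0.98 and 0.20), the DNA ligase gene *CDC9* (−0.46 and 0.22) and *RFA3*, a subunit of the single-strand binding complex (−0.21 and 0.38), followed. Its partners *RFA2* (−0.043 and 0.30, an interaction call that ended in 7 of the 15 settings) and *RFA1* (−0.13 and 0.067) were not opposite. Of replication genes on no list, named after their values were seen, *POL3* (−0.56 and 0.39), *DPB2* (−0.65 and 0.43), *SLD2* (−0.51 and 0.16), *PSF3* (−0.25 and 0.54), *TOF1* (−1.13 and 0.27), *MRC1* (−0.40 and 0.41) and *RRM3* (−0.96 and 0.47) were opposite in this direction.

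Cyclin and regulator genes of Start and S phase were also among the 210. *PCL1*, a cyclin of the kinase Pho85, measured 9.57 and 9.54 in met30-6 at 35 °C and 11.02 and 11.06 at 25 °C, against 11.69 and 11.73 in PY1 at 35 °C and 11.21 and 11.09 at 25 °C, and *CLB6*, an S-phase cyclin, 8.26 and 8.39 in met30-6 at 35 °C and 10.20 and 10.27 at 25 °C, against 10.93 and 10.95 in PY1 at 35 °C and 10.67 and 10.49 at 25 °C. Both were lowest in met30-6 at 35 °C on each array and highest in PY1 at 35 °C. The changes of *CLB5*, the other S-phase cyclin, were −1.11 in met30-6 and 0.48 in PY1, and those of the G1 cyclin *CLN2* −1.07 in met30-6 and 0.36 in PY1. *CLN1*, its paralog, fell in met30-6 with no called change in PY1 (−1.43 and 0.011). Among the regulators, *NRM1*, the MBF corepressor, changed by −1.47 and 0.23 in met30-6 and PY1, *TOS4* by −1.36 and 0.31, *PLM2* by −0.60 and 1.18 and the homeodomain repressor *YOX1* by −0.72 and 0.68. The checkpoint kinase *RAD53* changed by −0.73 in met30-6 and 0.48 in PY1, and the Cdc28 inhibitor kinase *SWE1* by −0.33 in met30-6 and 0.62 in PY1, so that the rise in PY1 was the larger change in *PLM2* and *SWE1*, and the fall in met30-6 in *NRM1* and *TOS4*.

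*HO*, the endonuclease of mating-type switching, had the most negative interaction of all genes and yet was not opposite. Its arrays were at 5.88 and 5.68 in met30-6 at 35 °C and 11.50 and 11.56 at 25 °C, against 11.41 and 11.57 in PY1 at 35 °C and 11.67 and 11.64 at 25 °C. *HO* had a PY1 change of −0.16 that was not called and fell by 5.75 ± 0.087 in met30-6, an interaction of −5.59 ± 0.12 (limma, adjusted p = 7.36e-06). The met30-6 level at 35 °C was dim, so that the size is uncertain.

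Cohesion and repair genes completed the late G1 members. *RTT107*, a scaffold of repair at stalled forks, had 9.22 and 9.14 in met30-6 at 35 °C and 10.33 and 10.34 at 25 °C, against 11.19 and 11.17 in PY1 at 35 °C and 10.51 and 10.37 at 25 °C. *PDS5*, of cohesin maintenance, measured 10.93 and 10.82 in met30-6 at 35 °C and 11.44 and 11.54 at 25 °C, against 12.22 and 12.22 in PY1 at 35 °C and 11.53 and 11.44 at 25 °C. At 25 °C the group mean of *PDS5* was 11.49 in met30-6 and 11.49 in PY1, and the fall in met30-6 (−0.61) and the rise in PY1 (0.73) parted the strains from there. The cohesin subunit genes *MCD1* (−1.002 and 0.49 in met30-6 and PY1), *SMC3* (−0.60 and 0.54) and *IRR1* (−0.56 and 0.63) were opposite. *SMC1*, the remaining subunit, had −0.22 and 0.28, neither of them called, and its interaction call ended in 9 of the 15 settings. *MSH6* of mismatch repair (−1.30 and 0.48) and the histone chaperone *ASF1* (−0.85 and 0.23) were opposite, as was *AXL2* of bud-site selection (−0.28 and 0.75). Of the histone genes, 2 of 9 were opposite, *HTB2* (−1.01 and 0.25) and *HHT1* (−0.53 and 0.23), and 0 were left without replicate 2 of PY1 at 35 °C. Their near-identical copies *HTB1* and *HHT2* had no called interaction, and the probe sets of such copies may share signal.

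Genes of chromosome structure and segregation that stood on no list also appeared among the 210. They were named after their values were seen, with met30-6 and PY1 changes of −0.53 and 0.73 for the cohesin acetyltransferase *ECO1*, −0.88 and 0.29 and −0.19 and 0.29 for the condensin subunits *YCS4* and *SMC4*, and −0.42 and 0.37 for topoisomerase *TOP2*. The kinetochore genes *MIF2* (−0.52 and 0.28), *MTW1* (−0.36 and 0.31), *NNF1* (−0.62 and 0.47), *CTF3* (−0.52 and 0.38) and *DUO1* (−0.90 and 0.20) were opposite, as were the checkpoint genes *BUB1* (−0.36 and 0.59) and *BUB2* (−0.39 and 0.33) and securin, *PDS1* (−0.28 and 0.45). *CHL4*, also a kinetochore gene, went the other way (0.51 in met30-6 and −0.42 in PY1), and no list of kinetochore genes was counted. The tRNA methyltransferase genes *TRM9* (−0.55 and 0.28), *TRM11* (−0.41 and 0.23) and *TRM13* (−0.74 and 0.18) moved the same way.

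**Figure D3:**
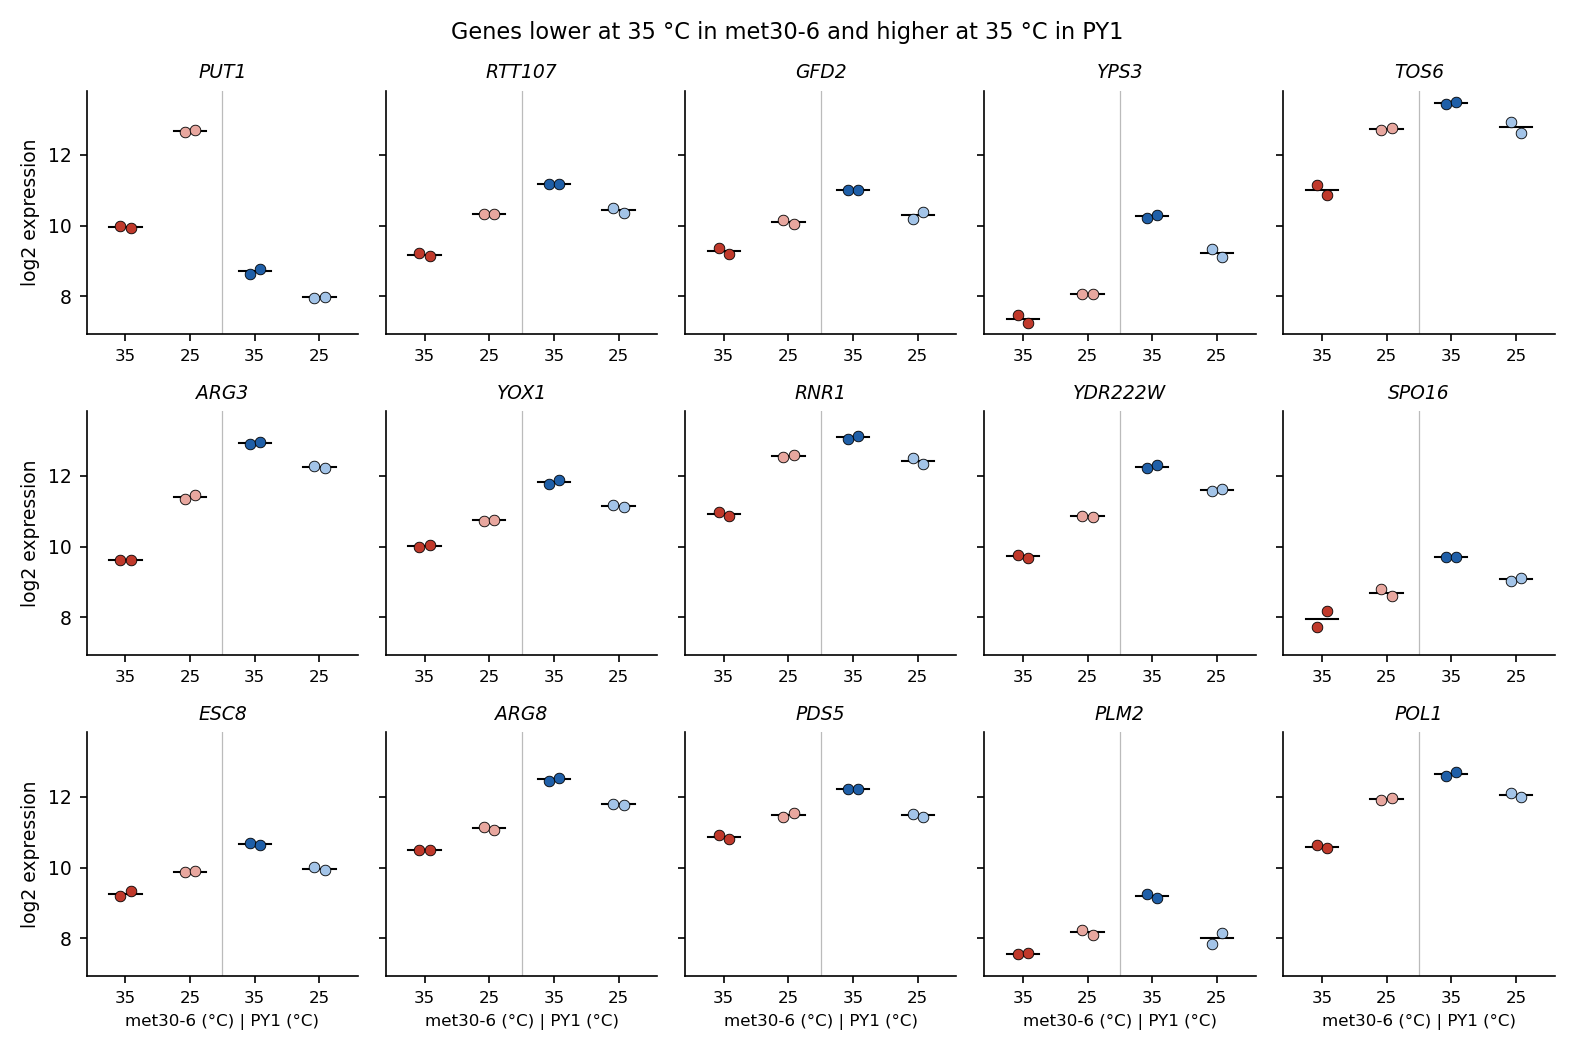
Log2 expression on each array (points) and group mean (bars) for the 15 genes with the largest opposite changes among those down in met30-6 and up in PY1, at 35 °C and 25 °C for met30-6 (left, red) and PY1 (right, blue). The met30-6 points at 35 °C lie below those at 25 °C and the PY1 points at 35 °C above those at 25 °C in each panel, and *PUT1* alone is higher in met30-6 than in PY1 at both temperatures.

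Arginine and proline genes were the other named group. *ARG3*, ornithine carbamoyltransferase, measured 9.62 and 9.62 in met30-6 at 35 °C and 11.35 and 11.45 at 25 °C, against 12.90 and 12.96 in PY1 at 35 °C and 12.27 and 12.23 at 25 °C. The strain difference was −3.32 at 35 °C and −0.85 at 25 °C, and the interaction −2.46 ± 0.079 (limma, adjusted p = 1.48e-05). *ARG8*, acetylornithine aminotransferase, changed by −0.62 in met30-6 and 0.71 in PY1. Of the 8 arginine synthesis genes, *ARG1*, *ARG4* and *ARG7* fell by a call in met30-6 alone (−0.57, −0.34 and −0.72), while *CPA1*, a carbamoyl phosphate synthetase subunit, rose in both strains (0.75 in met30-6 and 0.35 in PY1). *PUT1*, proline oxidase, had 10.00 and 9.92 in met30-6 at 35 °C and 12.64 and 12.70 at 25 °C, against 8.64 and 8.78 in PY1 at 35 °C and 7.94 and 7.99 at 25 °C. It was higher in met30-6 at both temperatures, by 1.25 at 35 °C and by 4.70 at 25 °C, with a fall of 2.71 in met30-6 and a rise of 0.74 in PY1. Its interaction, −3.45 ± 0.095 (adjusted p = 1.48e-05, limma), was the largest of the 210.

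The rest of the leading genes had mixed roles. *TOS6*, a cell wall protein gene, measured 11.14 and 10.88 in met30-6 at 35 °C and 12.71 and 12.77 at 25 °C, against 13.45 and 13.51 in PY1 at 35 °C and 12.94 and 12.63 at 25 °C. *YPS3*, an aspartyl protease gene, measured 7.48 and 7.24 in met30-6 at 35 °C and 8.06 and 8.08 at 25 °C, against 10.23 and 10.29 in PY1 at 35 °C and 9.33 and 9.12 at 25 °C. The *TOS6* arrays overlapped between the strains at 25 °C and *YPS3* was already lower in met30-6 there, by 1.15. *GFD2* (−0.84 and 0.73 in met30-6 and PY1), *ESC8* (−0.62 and 0.71), *YDR222W* (−1.15 and 0.67) and *SPO16*, a gene of meiotic synapsis (−0.75 and 0.63), were opposite as well, and the opposite call of *SPO16* ended in 4 of the fits with a single array left out. In the iron regulon, *FTR1* (−0.34 and 0.32) and *FIT2* (−0.28 and 0.21) of iron uptake were opposite, and among the other lists *CYC1*, for cytochrome c (−0.35 and 0.31, not called opposite without replicate 2 of PY1 at 35 °C), *RPC25* of RNA polymerase III (−0.60 and 0.23), *RPS14B* of the small ribosomal subunit (−0.44 and 0.33), the helicase gene *DBP8* of ribosome assembly (−1.04 and 0.19) and *ALK1*, a haspin-like kinase gene (−0.29 and 0.18). Of the 210 genes, 43 belonged to a list.

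Position on the chromosomes was a feature that the choice of these genes had not used. Among the 328, 25 pairs were direct neighbours in the gene order of the R64 assembly, 6 with both genes up in met30-6, 13 with both down and 6 with 1 of each. The pairs up in met30-6 included *SUL1* and *VBA2* (interactions of 3.91 and 1.56), *MET32* and *CHL4* (2.47 and 0.93), and the run of *MHT1*, *MMP1* and *GTT2*. *YIL165C* and *NIT1* (1.64 and 1.44) are nitrilase genes. Pairs down in met30-6 included *SPO16* and *RTT107* (−1.38 and −1.90) and *RFC3* and *PCL1* (−0.46 and −2.04). In the mixed pairs, neighbours parted, as did *MET10* and *PTR3* (1.36 and −1.36), *GTO1* and *YGR153W* (2.12 and −1.29), and *GIS1* and *MSH6* (0.83 and −1.78). No count of neighbours was made for other gene sets or for genes placed at random. Whether 25 pairs are more than such placement would give was therefore not tested.

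Read as strain differences, more of the opposite genes were called apart between the strains at 35 °C than at 25 °C. The strain comparisons share their arrays with the heat changes, so these values describe the same data from another side. Over all genes, met30-6 was higher than PY1 for 1852 genes (34.0%) and lower for 1781 (32.7%) at 35 °C, and higher for 378 (6.94%) and lower for 324 (5.95%) at 25 °C. The counts at 25 °C rested on few arrays, with 201 higher without replicate 2 of met30-6 at 25 °C, 206 without its replicate 1 and 248 without replicate 2 of PY1 at 25 °C, and with 162 and 173 lower without replicates 1 and 2 of met30-6 at 25 °C. Of the 118 genes up in met30-6, 112 were called higher and 0 lower in met30-6 at 35 °C, and 38 higher and 12 lower at 25 °C. Their median strain difference was 0.80 at 35 °C and 0.041 at 25 °C. These medians are signed, so higher and lower genes offset each other, and they do not give the size of the gap. Of the 210 genes down in met30-6, 5 were higher and 202 lower at 35 °C, and 13 higher and 27 lower at 25 °C, with medians of −0.95 at 35 °C and −0.066 at 25 °C.

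**Figure D4:**
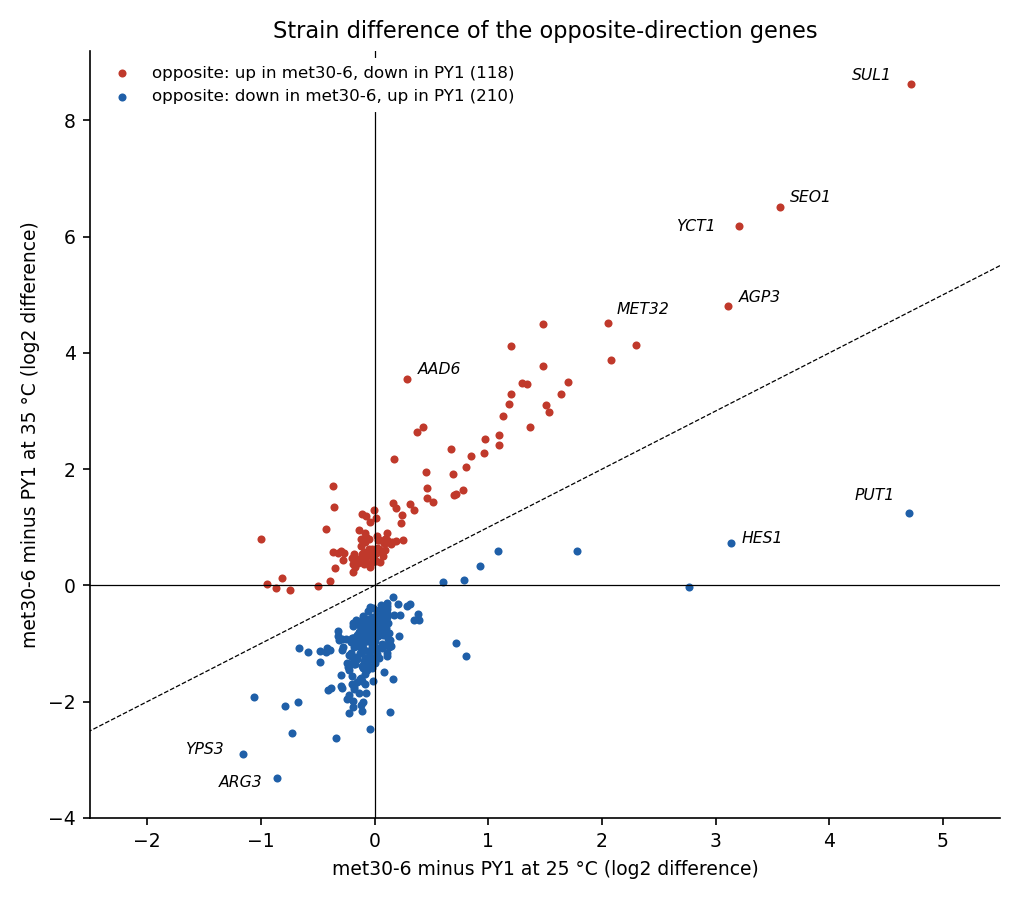
Strain difference, met30-6 minus PY1 on the log2 scale, at 35 °C (vertical axis) against 25 °C (horizontal axis) for the 118 genes up in met30-6 (red) and the 210 down in met30-6 (blue), with the dashed line where both differences are equal. Most points lie near 0 at 25 °C, while *SUL1*, *SEO1* and *YCT1* start high in met30-6 and end higher, and *PUT1* and *HES1* start high and end closer to PY1.

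The strain differences at 25 °C are given here for the sulfur and late G1 lists. Of the 19 sulfate and methionine genes, 18 were called higher in met30-6 at 35 °C and 15 at 25 °C, with median strain differences of 2.27 at 35 °C and 1.05 at 25 °C. Of the 13 salvage genes, 12 were higher at each temperature, with medians of 3.29 at 35 °C and 1.20 at 25 °C. *JLP1*, at the far end, was 7.53 higher at 35 °C and 6.65 at 25 °C, with PY1 arrays between 5.35 and 6.60. Of the 43 late G1 genes, 42 were lower in met30-6 at 35 °C and 6 at 25 °C, with median differences of −1.25 at 35 °C and −0.10 at 25 °C, and 0 were higher at either. Whether the lists differ from each other in this respect was not tested. Over all genes a called interaction with a strain difference of at least 2-fold at 35 °C and within 0.3 of 0 at 25 °C was found for 108 genes higher and 277 lower in met30-6.

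The reverse, a gap at 25 °C that closed at 35 °C, met the criteria for 7 genes that were lower in met30-6 at 25 °C and for 0 that were higher. *HPF1*, a cell wall mannoprotein gene, measured 12.68 and 12.57 in met30-6 at 35 °C and 9.62 and 9.67 at 25 °C, against 12.38 and 12.42 in PY1 at 35 °C and 11.46 and 11.37 at 25 °C. It rose in both strains, by 2.98 ± 0.064 in met30-6 and 0.98 ± 0.064 in PY1. The strain difference also closed for the vitamin B6 gene *SNZ1* (0.065 at 35 °C and −1.70 at 25 °C), the ATP synthase inhibitor gene *INH1* (−0.29 and −1.97), *CRG1* (0.15 and −1.27) and the glycine cleavage genes *GCV1* (−0.097 and −1.47) and *GCV2* (0.006 and −1.21), all of which rose in both strains. *GCV2* reached equal levels, with 13.61 and 13.65 in met30-6 and 13.57 and 13.67 in PY1 at 35 °C.

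Genes that rose in both strains and rose more in met30-6 included most of the general stress list. Over all genes this class held 409 of 5449, or 7.51%. That share also stands beside the counts of this class in the lists that follow. Of 34 general stress genes, targets of Msn2 and Msn4, 27 were of this kind, 3 rose by a call in met30-6 alone, and 1, the mitochondrial superoxide dismutase gene *SOD2*, was opposite (0.55 in met30-6 and −0.32 in PY1). The list's medians were 2.02 in met30-6 and 0.63 in PY1. *ALD3*, an aldehyde dehydrogenase gene, measured 12.29 and 12.43 in met30-6 at 35 °C and 8.01 and 8.13 at 25 °C, against 9.92 and 9.82 in PY1 at 35 °C and 8.35 and 8.12 at 25 °C. Its arrays at 25 °C overlapped between the strains, and its heat changes were 4.29 ± 0.097 in met30-6 and 1.64 ± 0.097 in PY1. The transaldolase gene *NQM1* changed by 5.29 and 3.16 in met30-6 and PY1, *HBT1* by 3.56 and 1.20, *MSC1* by 2.78 and 0.44, the catalase gene *CTT1* by 2.76 and 0.57 and *EGO4* by 3.49 and 1.31. *RTN2*, a reticulon gene, rose by 2.41 in met30-6 and had −0.16 in PY1.

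Heat shock factor targets and folding genes had smaller median changes than the general stress list, a difference that was not tested. Of the 29 genes under heat shock factor, 13 rose more in met30-6 than in PY1 with a call in each, 4 rose by a call in met30-6 alone and 12 had no called interaction, with medians of 0.91 in met30-6 and 0.48 in PY1. *HSP26*, a small heat shock protein gene, changed by 4.54 in met30-6 and 3.18 in PY1, *HSP42* by 2.15 in met30-6 and 0.53 in PY1 and *HSP31* by 2.30 in met30-6 and 0.49 in PY1. The chaperone genes *SSA1*, *SSA2*, *HSC82* and *HSP60* had no called interaction, with *HSP60* at 0.40 and 0.54. Of 22 genes of folding in the endoplasmic reticulum, 8 rose in both and more in met30-6, among them *SIL1* (1.504 and 0.33) and *MPD1* (1.48 and 0.50), and *CNE1*, for calnexin, rose in PY1 alone (0.067 in met30-6 and 0.34 in PY1), with an interaction call that ended under both other scalings and in 4 fits with a single array left out. In the proteasome list 31 of 33 interactions were higher, beside 23.7% over all genes. Of the 31, 26 were so through a rise called in met30-6 alone, and the list's medians were 0.53 in met30-6 and 0.021 in PY1. The 31 became 28 after quantile normalisation, and fewer were called in some fits with a single array left out.

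Oxidative stress genes divided between the classes. Of 26, 6 rose in both strains and more in met30-6, 5 were opposite, 3 fell by a call in PY1 alone and 1 fell in both, less so in met30-6. *SRX1*, sulfiredoxin, had 9.31 and 9.47 in met30-6 at 35 °C and 9.24 and 9.196 at 25 °C, against 8.62 and 8.87 in PY1 at 35 °C and 9.88 and 9.84 at 25 °C. Its met30-6 arrays lay close together, with a change of 0.17 that was not called, while in PY1 it fell by 1.12. *OYE3*, an oxidoreductase gene, fell likewise by 1.06 in PY1, with 0.11 in met30-6, and the peroxidase gene *GPX2* fell in both (−0.72 in met30-6 and −1.61 in PY1). Against these stood *TSA2* (3.41 and 2.00), *PRX1* (1.85 and 0.51) and *GPX1* (1.75 and 0.38), antioxidant genes that rose in both. *YAP1*, the activator of many of these genes, was opposite by small amounts (0.36 in met30-6 and −0.24 in PY1), and *LOT6* was the list's only lower interaction (−0.34), with 2 lower after quantile normalisation.

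Genes of reserve carbohydrates, respiration and the citric acid cycle were higher in the interaction, by different routes. Of 20 trehalose and glycogen genes, 11 rose in both and more in met30-6, with *GDB1*, the debranching enzyme, at 2.22 in met30-6 and 0.61 in PY1 and *PGM2*, phosphoglucomutase, at 2.52 in met30-6 and 0.99 in PY1. Its paralog *PGM1* fell in met30-6 (−1.19). Of 34 respiratory genes, 24 interactions were higher, 16 of them through a rise called in met30-6 alone, and 24 of the 34 had been lower in met30-6 at 25 °C. Their median strain difference was 0.029 at 35 °C and −0.42 at 25 °C. *QCR10*, a subunit of the cytochrome bc1 complex, measured 12.98 and 13.19 in met30-6 at 35 °C and 11.36 and 11.43 at 25 °C, against 12.43 and 12.42 in PY1 at 35 °C and 12.34 and 12.34 at 25 °C. It was lower in met30-6 at 25 °C and higher at 35 °C. Of 21 citric acid cycle genes, 14 were higher, with *SDH2* and *SDH1*, of succinate dehydrogenase, at 1.25 and −0.14 and 1.31 and 0.20 in met30-6 and PY1, and *MDH2* was lower (−0.63), 1 of 3 lower after quantile normalisation. Fatty acid oxidation gave 7 higher and 2 lower of 20, the 7 becoming 12 with centred medians and 13 after quantile normalisation, among them *POT1* (3.33 and 0.51) and *POX1* (3.32 and 0.87), which were dim in PY1, and the carnitine acetyltransferase gene *YAT1*, which rose less in met30-6 (0.69 and 1.77). Autophagy genes gave 18 higher and 1 lower of 30, led by *ATG1* (1.57 and 0.11) and *ATG17* (1.81 and 0.40), and 12 higher without replicate 1 of met30-6 at 25 °C.

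Genes of ribosome production fell in met30-6 with little change in PY1. Of 60 ribosome biogenesis genes, 57 interactions were lower, 51 through a fall called in met30-6 alone, with medians of −1.04 in met30-6 and −0.12 in PY1. *LTV1*, of small subunit assembly, measured 8.73 and 8.42 in met30-6 at 35 °C and 11.11 and 11.17 at 25 °C, against 11.15 and 11.30 in PY1 at 35 °C and 11.06 and 11.17 at 25 °C. Only its met30-6 arrays at 35 °C stood apart, and its interaction was −2.68 ± 0.15 (adjusted p = 5.85e-05, limma). *NOP7* fell in both strains (−1.93 in met30-6 and −0.37 in PY1), and *DBP8* was the sole opposite member. Of 21 subunits of RNA polymerases I and III, 20 were lower, with *RPA135* and *RPA190*, the largest subunits of polymerase I, at −1.77 and 0.10 and −1.72 and −0.05. Ribosomal protein genes shifted by less, with 55 of 127 lower and 1 higher and medians of −0.19 in met30-6 and 0.034 in PY1, and the 55 became 106 after quantile normalisation, 35 with centred medians and 30 without replicate 2 of met30-6 at 25 °C. *RPS9A* (−1.95 and −0.58) and *RPL9A* (−1.14 and −0.062) fell most in the interaction, and *RPL15B* was the 1 higher (0.50 and 0.14), a call that ended after quantile normalisation, with the replicate block (limma, adjusted p = 0.0544) and in 4 fits with a single array left out. Both *RPS9A* and *RPL9A* have near-identical copies, so their probe sets may share signal. Cytosolic tRNA synthetases gave 8 lower of 19, or 15 after quantile normalisation and 4 without replicate 2 of PY1 at 35 °C, and translation factors 13 lower of 32, or 22 after quantile normalisation and 8 without the same array. Mitochondrial ribosomal protein genes had median heat changes of 0.22 in met30-6 and 0.22 in PY1, and gave 3 higher and 9 lower of 70, below the shares over all genes. The 3 became 8 with centred medians and 1 without replicate 1 of met30-6 at 25 °C, and the 9 became 5 with the replicate block and 2 without replicate 2 of that group.

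**Figure D5:**
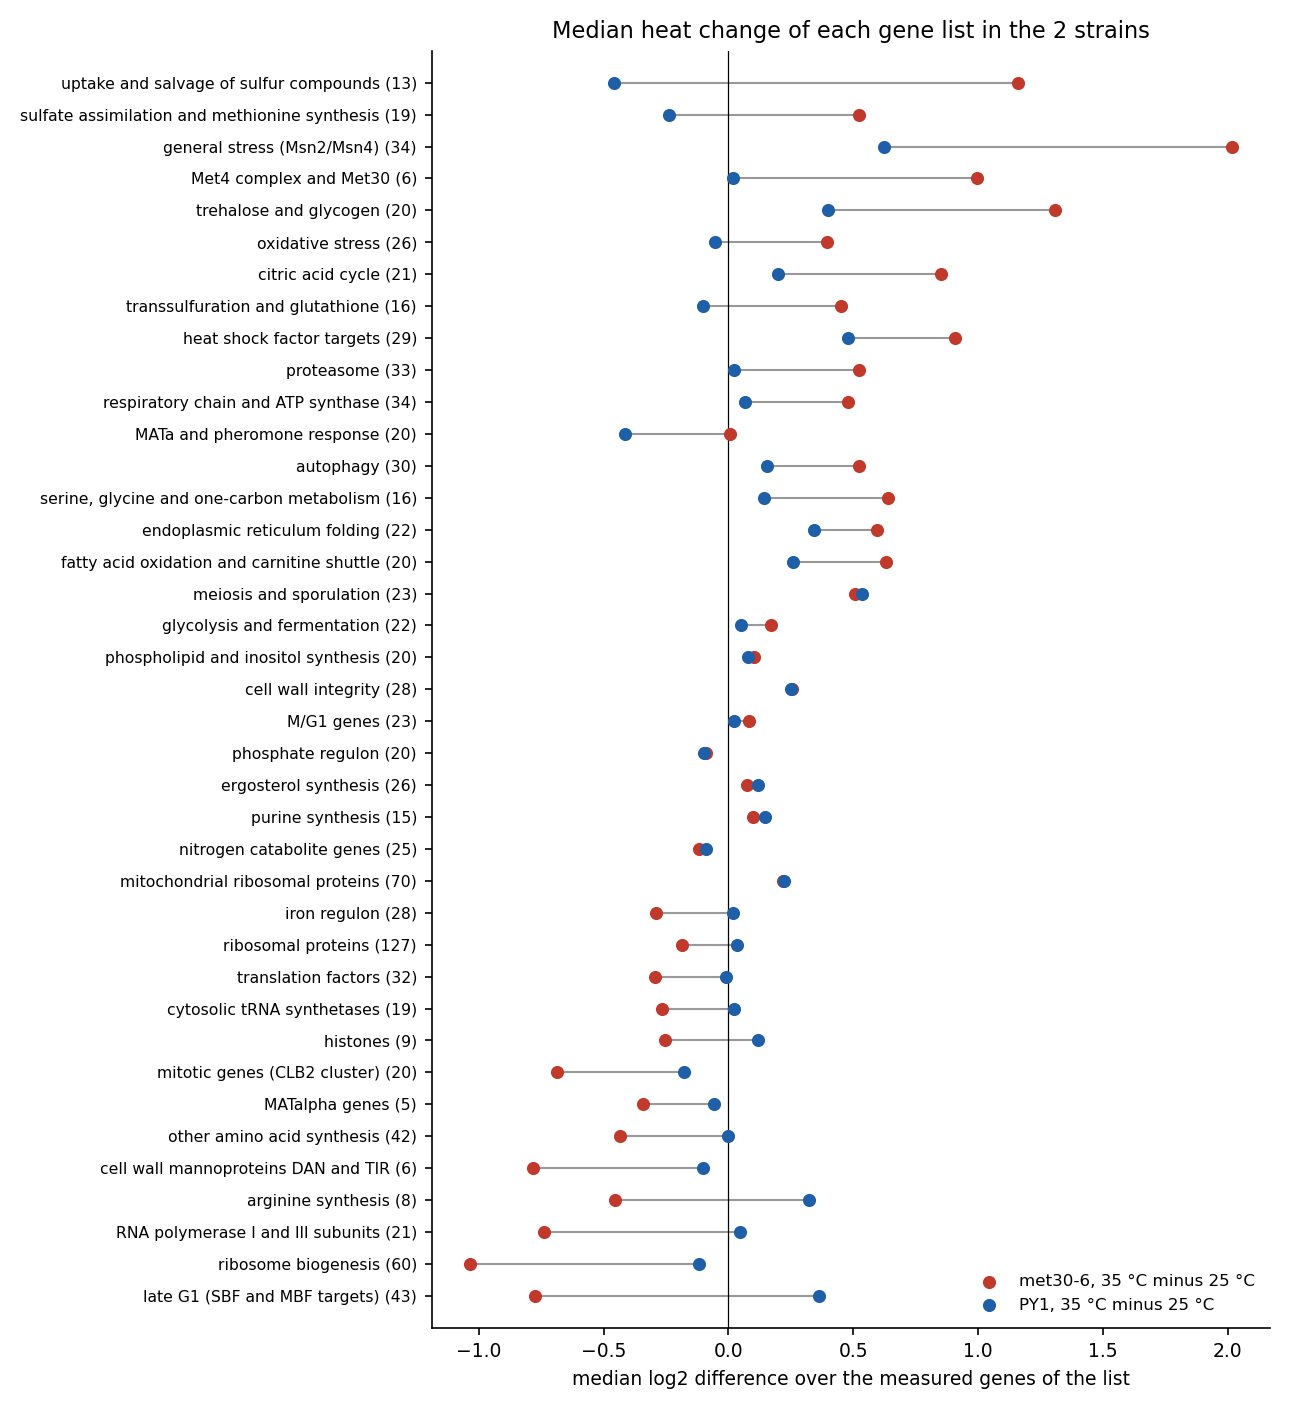
Median heat change, 35 °C minus 25 °C on the log2 scale, over the measured genes of each of 39 gene lists in met30-6 (red) and PY1 (blue), ordered by the median interaction, with the number of measured genes in parentheses. The medians of the sulfate assimilation and salvage lists at the top lie on opposite sides of 0 in the 2 strains. Those of the late G1, RNA polymerase and arginine lists near the bottom, and of some other lists, do so too. General stress and the Met4 complex lie above 0 in both.

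Later cell cycle genes and the remaining biosynthetic lists held between 0 and 2 opposite members each. Over all genes 23.7% of interactions were called higher and 24.5% lower, and the M/G1, purine and nitrogen catabolite counts were near those shares or below them. Of 20 mitotic genes of the *CLB2* cluster, 10 interactions were lower and 0 higher, with median heat changes below 0 in both strains (−0.69 in met30-6 and −0.18 in PY1). *CLB1*, a mitotic cyclin gene, changed by −0.98 in met30-6 and −0.16 in PY1 and *ALK2* by −1.45 in met30-6 and 0.11 in PY1. M/G1 genes gave 5 higher and 3 lower of 23, with the 3, among them *CDC6* (−0.61 and −0.27) and *MCM7* (−0.65 and −0.24) of replication licensing, becoming 0 without replicate 2 of PY1 at 35 °C. The calls of *CDC6* and *MCM7* also ended in other fits with a single array left out. Other amino acid synthesis genes gave 1 higher, *ARO9*, and 21 lower of 42, with *LYS4* (−1.82 and −0.42) and *LEU9* (−1.69 and −0.49) in front, and 12 lower without replicate 2 of PY1 at 35 °C. *ARO9*, the 1 higher gene of that list, breaks down aromatic amino acids, as given above, and is not a synthesis gene. Purine genes gave 3 higher and 3 lower of 15. *ADE17* rose in both strains (1.52 and 0.49) and *AAH1*, adenine deaminase, fell in met30-6 (−1.42 and 0.004). Without single arrays the higher purine calls ranged from 3 to 5 and the lower from 2 to 6, and the lower became 8 after quantile normalisation. Serine, glycine and one-carbon genes gave 7 higher and 3 lower of 16, and *MIS1*, a mitochondrial tetrahydrofolate synthase gene, was the lowest (−1.45 and 0.042). Nitrogen catabolite genes gave 6 higher and 7 lower of 25, the 7 becoming 3 without replicate 2 of PY1 at 35 °C. Glycolysis and fermentation genes gave 5 higher and 0 lower of 22, or 8 higher after quantile normalisation, led by the pyruvate decarboxylase gene *PDC6* (1.18 and −0.26).

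In the lists of transport, lipids and the cell wall both directions were called. For the phosphate, phospholipid and cell wall integrity lists the counts were near the shares over all genes, 23.7% higher and 24.5% lower, and say nothing particular of these lists. Iron regulon genes gave 2 higher and 9 lower of 28, the 2 becoming 4 with centred medians, with *FET4* and *FET3*, of iron uptake, at −2.61 and −1.16 and −0.91 and 0.088 in met30-6 and PY1. Phosphate genes gave 4 higher and 5 lower of 20, from *PHM7* (4.03 and 1.99) to the acid phosphatase gene *PHO3* (−1.53 and 0.079). Ergosterol genes gave 2 higher and 4 lower of 26, with between 1 and 4 higher when single arrays were left out, 4 higher with centred medians and 8 lower after quantile normalisation. Phospholipid and inositol genes gave 5 higher and 4 lower of 20, or 8 higher with centred medians and after quantile normalisation, 2 lower with the replicate block, 3 higher without replicate 1 of met30-6 at 25 °C, and 1 lower without replicate 2 of PY1 at 35 °C. *SCS3*, of that list, had 7.57 and 5.68 in met30-6 at 35 °C and 10.57 and 10.67 at 25 °C, against 11.51 and 11.63 in PY1 at 35 °C and 11.11 and 11.06 at 25 °C. The met30-6 arrays at 35 °C differed from each other by more than those of any other group, and the interaction of −4.48 ± 0.73 (adjusted p = 0.00281, limma) carries a large SE. Cell wall integrity genes gave 7 higher and 5 lower of 28 (8 lower after quantile normalisation), from *YPS6* (2.02 and 0.50) to *YPS3* and the glycosidase gene *UTR2* (−1.59 and −0.17). DAN and TIR mannoprotein genes gave 0 higher and 3 lower of 6. *DAN1* fell in met30-6 (−2.70) from a level 4.11 above a dim PY1 level. Of 16 transsulfuration and glutathione genes, 10 were higher and 2 lower, *GTO3* (−3.08 and −1.71) and *IRC7* (−1.45 and −0.79), which fell in both strains.

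Of genes with all group means at 7 or above that fell in both strains and further in met30-6, the largest interaction was that of *YHB1*, a nitric oxide oxidoreductase gene, which measured 11.11 and 11 in met30-6 at 35 °C and 13.75 and 13.74 at 25 °C, against 13.16 and 13.38 in PY1 at 35 °C and 13.80 and 13.63 at 25 °C. Only its met30-6 arrays at 35 °C lay far from the rest, and its interaction was −2.25 ± 0.13 (limma, adjusted p = 5.85e-05). *INA1* (−2.51 and −0.37 in met30-6 and PY1), *YDL129W* (−2.20 and −0.32), the aldehyde dehydrogenase gene *ALD5* (−2.01 and −0.33) and the ribose phosphate isomerase gene *RKI1* (−1.88 and −0.25) came next. That class had 133 genes, 58 and 68 without replicates 1 and 2 of PY1 at 35 °C, 83 without replicate 2 of met30-6 at 25 °C and 86 without replicate 2 of PY1 at 25 °C. The class that rose in both and more in met30-6, with 409 genes, had 248 and 227 without replicates 1 and 2 of PY1 at 35 °C.

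Among genes with a called interaction that moved the same way in both strains, heat moved a small number further in PY1. *SER3*, an isozyme of the first step of serine synthesis and paralog of *SER33*, measured 11.66 and 11.78 in met30-6 at 35 °C and 12.83 and 12.85 at 25 °C, against 10.64 and 10.65 in PY1 at 35 °C and 12.94 and 12.93 at 25 °C. The strains differed at 25 °C by −0.096, which was not called, and its fall was 1.12 ± 0.057 in met30-6 and 2.29 ± 0.057 in PY1. *SER33* rose in met30-6, as given above. *LEU2*, of leucine synthesis, fell by 1.09 in met30-6 and 2.11 in PY1, *APA2* by 0.28 and 1.05, *YLR108C* by 0.93 and 1.70, and the urea permease gene *DUR3* by 0.41 and 1.05. Rises that were smaller in met30-6 included *IME1*, the inducer of meiosis (0.20 and 0.94 in met30-6 and PY1), *PRM7* (0.90 and 1.55), *CEM1* (0.20 and 0.78), the heme synthesis gene *HEM14* (0.49 and 1.02) and *YJL107C* (0.36 and 0.83, an interaction call that ended in 3 fits with a single array left out). These classes held 32 and 16 genes. The 32 became 14 without replicate 1 of met30-6 at 25 °C or replicate 2 of met30-6 at 35 °C, 18 without replicate 2 of met30-6 at 25 °C or replicate 1 of met30-6 at 35 °C, and 19 without replicate 2 of PY1 at 35 °C. The 16 became 8 and 9 without replicates 1 and 2 of met30-6 at 25 °C.

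Some genes responded to heat in PY1 with a met30-6 change that was not called and within 0.3 of 0. *CSN9*, a COP9 signalosome subunit gene, measured 8.73 and 8.69 in met30-6 at 35 °C and 8.98 and 8.87 at 25 °C, against 10.21 and 10.24 in PY1 at 35 °C and 8.87 and 9.12 at 25 °C. Its PY1 arrays at 35 °C were the only ones to stand apart. *YER137C* (1.14 in PY1), *RIM9* (0.90), the ribonuclease H2 subunit gene *RNH203* (0.82), *HPA3* (0.72) and *KRE29* (0.71) rose there too. *PHO89*, a phosphate transporter gene, measured 9.28 and 9.09 in met30-6 at 35 °C and 9.25 and 9.35 at 25 °C, against 7.81 and 8.12 in PY1 at 35 °C and 9.54 and 9.46 at 25 °C, so that it fell in PY1 by 1.53. *YML131W* (−1.01), *GAT1*, a regulator of nitrogen genes (−0.59), and *YLR156W* (−0.73) fell there as well. The 150 genes called up in PY1 alone were 52 without replicate 2 and 97 without replicate 1 of PY1 at 35 °C, and the 69 called down were 45 without replicate 1. In the same way the rises called in PY1 over all genes, 1429, were 732 without replicate 2 of PY1 at 35 °C, and the falls, 569, were 299 without replicate 1.

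The called interactions of mating-type genes were all higher. Of 20 genes of MATa cells or of the pheromone response, 11 interactions were higher and 0 lower. Of the 20, 5 fell in met30-6 and 11 in PY1, with medians of 0.0067 in met30-6 and −0.41 in PY1. *STE2*, the alpha-factor receptor gene, measured 13.19 and 13.15 in met30-6 at 35 °C and 13.14 and 13.20 at 25 °C, against 12.75 and 12.80 in PY1 at 35 °C and 13.38 and 13.08 at 25 °C. Its PY1 arrays at 35 °C were the lowest, and its interaction was 0.46 ± 0.14 (limma, adjusted p = 0.0326), a call that ended in 6 of the 8 fits with a single array left out. *FUS1*, of cell fusion, changed by −0.17 in met30-6 and −0.86 in PY1. The defining MATa genes *MFA1*, *MFA2*, *STE2* and *STE6* had group means between 11.42 and 13.23 in the 4 groups, and *BAR1* had means of 4.82 to 6.24. Of the MATalpha markers, MF(ALPHA)1 had group means between 3.77 and 4.06, MF(ALPHA)2 between 4.48 and 6.30, *STE3* between 5.84 and 6.36 and *SAG1* between 9.78 and 10.12. None of the 5 MATalpha genes measured had a called interaction. Meiotic genes gave 5 higher and 2 lower of 23, near or below the shares over all genes, 23.7% higher and 24.5% lower. *MER1* (3.42 and 0.38) and *DMC1* (1.12 and 0.043) were in front. *MER1* was dim in every group but met30-6 at 35 °C, and its call ended without replicate 2 of PY1 at 25 °C (interaction 2.83, limma adjusted p = 0.0589) and without replicate 1 of met30-6 at 35 °C (2.64, limma adjusted p = 0.0642). The part of these genes in other results was not tested.

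Across the series, array medians lay between 10.97 and 11.09 and replicate arrays correlated across genes at an r of 0.993 to 0.995. The median SD within a group was between 0.042 and 0.072. Over all genes the median interaction was 0.0025, and centring each array on a common median moved it to 0.0755. Under centring no gene of the 328 changed the sign of its heat change in either strain. After quantile normalisation 2 of the 118, *ARR2* and *VAC8*, changed sign in met30-6. No detection calls were analysed here, so genes under a mean of 6 were marked as dim by level alone.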

How the data were processed

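Total RNA from 8 samples was labelled by the one-cycle biotin method and hybridised to 1 Affymetrix array each, per the labels' protocols. The values analysed were the authors' deposited processed expression values on a log2 scale, with base 2 inferred from their range of 0 to 14.51. How the background was corrected and the arrays normalised is not stated by any label, and detection calls were not used here. No further normalisation was applied. The number of arrays limits the precision.

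Of 5716 probe sets, 5498 had 1 gene symbol in the platform annotation, 218 had none and 0 had several, and 12 symbols were updated through gene identifiers. Of the 5449 genes, 47 had several probe sets, of which the one with the highest mean over all 8 arrays was kept, and 116 were read by probe sets that may hybridise to related genes.

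The 4 group means were fitted with limma 3.58.1 in R 4.3.3, with eBayes (4 residual and 2.7 prior degrees of freedom) and Benjamini-Hochberg adjustment over all genes, and calls were made where the adjusted p was under 0.05. The fit was tested on simulated data. The main fit did not pair samples by replicate number. Deviations of same-numbered arrays correlated at an r of −0.18 to 0.11 between groups, which cannot exclude pairing that affects only some genes.

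Genes were named by rule: the 15 opposite genes in each direction whose smaller heat change of the 2 strains was largest, the largest interactions in each class, the 2 largest of each list in each direction, opposite list members that changed by at least 0.5 in each strain, and gaps that closed with heat. In the first of these and in the classes, all group means had to be at 7 or above. Other genes were named after their values were seen. The members and the 39 lists, with 1033 measured genes, were chosen with earlier results of these data known. Alternatives covered scaling, dim genes, probe set choice, the prior, the threshold, the replicate block and single arrays left out. Promoter and protein sequences were not analysed here.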

Additional observations from a re-analysis of the deposited data

Results flagged for a closer look

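The heat change differed between the strains, by the test of the difference itself, for every gene with a called interaction, so that the 2631 called genes meet this criterion by construction. The opposite genes are given here, 118 up and 210 down in met30-6, with the 30 genes plotted for them.

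Among those up in met30-6, the interactions were 3.27 for *AAD6*, 3.02 for *LEE1*, 2.97 for *YCT1*, 2.95 for *SEO1*, 2.92 for *MET16*, 2.47 for *MET32*, 2.28 for *MET1*, 2.27 for *GSH1*, 2.19 for *MHT1*, 2.08 for *ARO10*, 2.01 for *AAD4*, 1.84 for *SUL2*, 1.78 for *MMP1*, 1.70 for *ARO9* and 1.40 for YDR524W-C.

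Among those down in met30-6, they were −3.45 for *PUT1*, −2.46 for *ARG3*, −2.42 for *TOS6*, −2.30 for *RNR1*, −1.94 for *POL1*, −1.90 for *RTT107*, −1.81 for *YDR222W*, −1.78 for *PLM2*, −1.75 for *YPS3*, −1.56 for *GFD2*, −1.40 for *YOX1*, −1.38 for *SPO16*, −1.34 for *PDS5*, −1.33 for *ARG8* and −1.33 for *ESC8*. All values are log2 differences between the heat changes of met30-6 and PY1.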

How the results depend on the processing

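The interaction kept its sign for the 173 genes chosen by the naming rule and for the 328 opposite genes in the 15 settings run for each, and the call ended in at least 1 setting for 23 of the 173. Of the opposite genes, 12 of the 50 taken by the rule, 37 of the 87 on a list and 215 of the 328 left that class in at least 1. Scaling turned several balances and widened that of the strain difference at 35 °C. Centred medians gave 1640 interactions higher and 1198 lower, 173 opposite genes up and 167 down, and 2265 genes higher and 1564 lower in met30-6 at 35 °C. Quantile normalisation gave 1910 rises and 1957 falls in met30-6. With array medians centred, the falls called in PY1 alone became 129 and the falls in both strains that were smaller in met30-6 became 29. Quantile normalisation gave 1144 falls in PY1, 551 genes lower in met30-6 at 25 °C, 170 falls in PY1 alone, 284 falls in both that were larger in met30-6, 40 that were smaller, and 214 opposite genes up in met30-6, of which 107 were among the 118. At an adjusted p under 0.01, the interaction was called for 829 genes higher and 871 lower, PY1 had 748 rises and 275 falls, and met30-6 at 25 °C was higher for 193 and lower for 158. In classes, that threshold left 43 opposite genes up and 82 down in met30-6, 191 rises in both that were larger and 7 that were smaller in met30-6, 46 falls in both that were larger and 8 that were smaller, and 63 rises and 36 falls in PY1 alone. A change of at least 1.5-fold in each strain left 20 opposite genes up and 18 down in met30-6. The replicate block gave 91 opposite genes up and 163 down, of which 86 and 162 were in the sets reported, and 1167 interactions higher and 1196 lower. The replicate block moved no count over all genes by over 1.5 times, but among the lists it left 5 of 9 lower calls of mitochondrial ribosomal proteins, 2 of 4 of phospholipid genes and 0 of 1 higher call of ribosomal proteins.

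With single arrays left out, the counts ranged from 997 to 1371 for interactions higher and from 1018 to 1354 for lower, from 1777 to 2183 for rises and 1295 to 1628 for falls in met30-6, and from 732 to 1424 for rises and 299 to 516 for falls in PY1. Genes higher in met30-6 ranged from 1502 to 1946 at 35 °C and from 201 to 408 at 25 °C, and genes lower from 1456 to 1841 at 35 °C and from 162 to 281 at 25 °C. Opposite genes ranged from 60 to 104 up and from 96 to 191 down. Rises in both strains ranged from 227 to 379 where larger in met30-6 and from 14 to 41 where smaller, and falls in both from 58 to 128 and from 8 to 17. Changes called in met30-6 alone ranged from 537 to 861 up and from 632 to 846 down, those in PY1 alone from 52 to 141 up and from 45 to 69 down, and those called in neither strain from 43 to 53. The cause of these shifts was not tested, beyond the loss of a sample or the stricter threshold itself. With 2 arrays a group, leaving out 1 assumes that the lone array varies like the other groups. *SUL1* in PY1 at 35 °C, *HO* in met30-6 at 35 °C and other dim values limit the size of their differences.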
